A study of Homo sapiens with 6 samples.

Results

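The Polycomb group genes described here encode 33 subunits of 3 chromatin complexes, Polycomb repressive complex 2 (PRC2), PRC1 and the Polycomb repressive deubiquitinase (PR-DUB). They were chosen by gene name from the 57820 genes of each deposited RNA-seq table, and all 33 were found. The 6 samples were untreated AID-DIvA cells, 3 WT and 3 ARID1A-KO, numbered 3 to 5 in each genotype. AID-DIvA is a U2OS osteosarcoma line that carries the restriction enzyme AsiSI behind an inducible switch and an auxin-inducible degron. Both genotypes carry this system, and no double-strand breaks (DSBs) were induced in these samples. ARID1A-KO clones were made with Cas9 and a pair of guide RNAs, and the sources used here do not say how many clones were sequenced. A difference between the genotypes and a difference between clones therefore cannot be told apart. The labels number the replicates without naming cultures, and the study calls its replicates independent experiments, so the p-values measure the spread between such samples of each genotype.

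PRC2 methylates histone H3 at the lysine that marks repressed developmental genes, with EZH1 or EZH2 as the enzyme and SUZ12 and EED as obligate partners. PRC1 attaches a single ubiquitin to histone H2A through RING1 or RNF2. Each PRC1 complex holds 1 PCGF protein, and it is either canonical, with a CBX reader and a PHC protein, or variant, with RYBP or YAF2. PR-DUB removes the H2A ubiquitin again through BAP1 and an ASXL protein. ARID1A is a subunit of the SWI/SNF remodeling complex, which is known to oppose Polycomb repression at developmental genes.

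The question put to the data was which Polycomb genes differed in mRNA level between ARID1A-KO and WT cells, and by how much. Of the 33 genes, 9 were higher and 4 lower in ARID1A-KO cells by edgeR's quasi-likelihood test with a Benjamini-Hochberg adjusted p under 0.05, called differentially expressed from here on. The called genes included the PRC1 subunits CBX7, PCGF6 and PHC2, which were higher, and PHC3, which was lower. PCGF6 and PHC3 were not called relative to the median change of the genes within 5 Mb of them, as described below. EZH1 was the only called gene among the 9 of PRC2, and the other 8, with EZH2, SUZ12 and EED, were not called. The adjustment covered all 19599 genes that passed a filter on low counts, and all 33 Polycomb genes passed it. None of the 33 changed by 2-fold or more, neither by an unadjusted p under 0.05 nor with DESeq2, while 10.8% of all tested genes were called with a change of that size.

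These counts were close to those of the genome as a whole. Of all tested genes, 36.2% were called, 17.8% higher and 18.4% lower, against 39.4% of the Polycomb genes, 27.3% higher and 12.1% lower. The median log2 fold change of the 33 was 0.02, and that of all tested genes 0.01. The median size of the change was 0.17 on the log2 scale, against 0.27 for all tested genes. The 33 genes had a median level of 26.5 TPM, against 8.59 TPM for all tested genes. The part of level in the sizes of change was not tested. In normalized counts, the 3 WT and 3 ARID1A-KO samples did not overlap for 18 of the 33 genes, of which 11 were higher and 7 lower, against 49.5% of all tested genes.

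**Figure D1:**
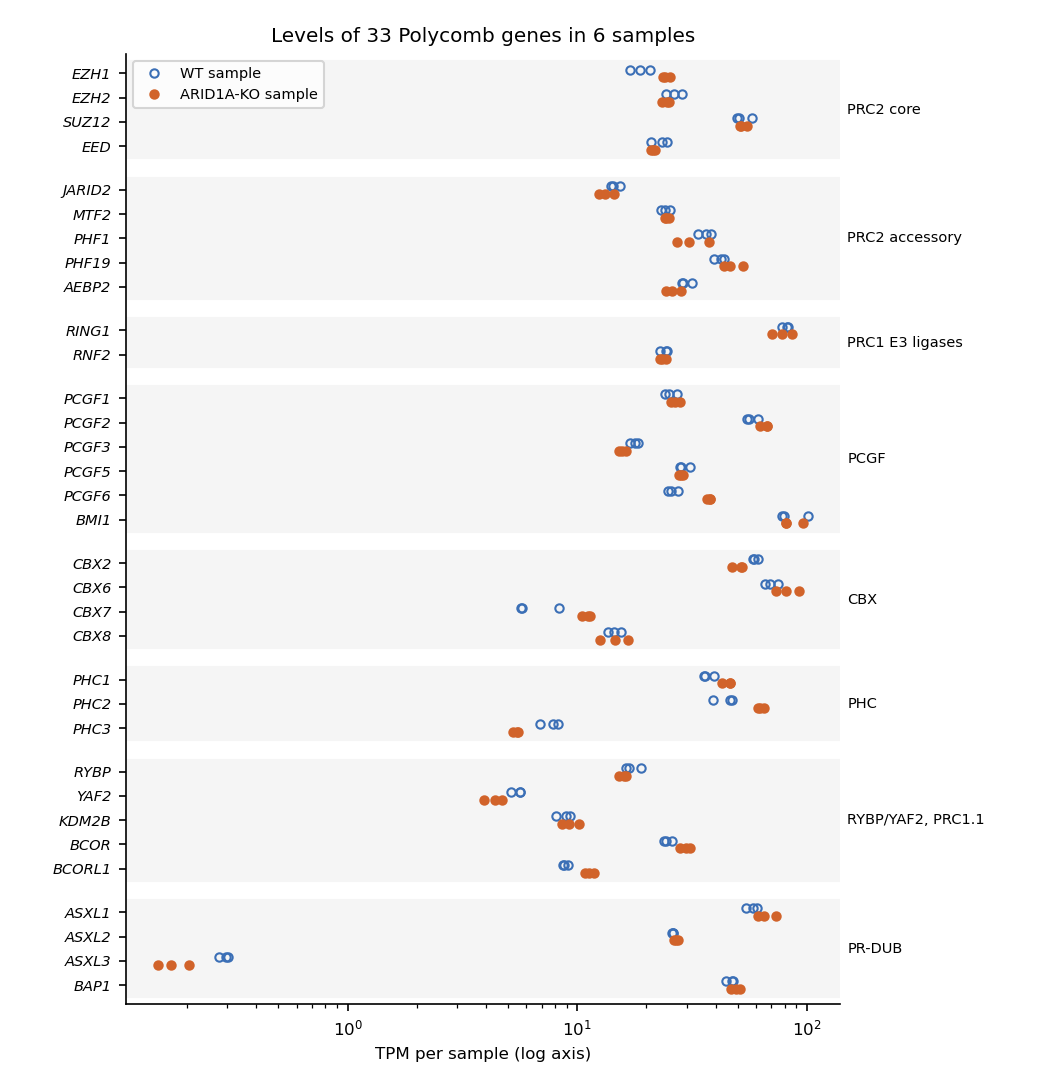
The level of each of the 33 Polycomb genes in every sample, in TPM (counts scaled by gene length and by the total of the sample) on a log axis, grouped by complex, with open circles for the 3 WT and filled circles for the 3 ARID1A-KO samples. Levels ran from 0.150 TPM for ASXL3 to 101 TPM for BMI1, and the 3 samples of a genotype lay close together for most genes.

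The targeted gene was checked first. Levels are given as deposited TPM, which are scaled by gene length, and log2 fold changes are those of ARID1A-KO over WT in normalized counts. ARID1A stood at 59.6, 62.8 and 62.2 TPM in the WT samples and at 8.56, 9.74 and 9.22 TPM in the ARID1A-KO samples, a log2 fold change of -2.74 (SE 0.07 and adjusted p = 9.66e-08). In normalized counts ARID1A RNA fell by 85.0%. Each sample held 54512105 to 84088708 counts, and genotype separated the samples along the first principal component, which held 74.7% of the variance. Of 12 osteoblast and mesenchymal markers, 7 had a mean of at least 1 TPM, RUNX2 and SPARC among them, while SP7, BGLAP, IBSP and TWIST1 were under 0.4 TPM in both genotypes. Of the 8 that were tested, 4 were called lower (COL1A1, SPARC, ALPL and SPP1) and 2 higher, VIM among them, and their median log2 fold change was -0.46. Their summed level was 2208 to 2441 TPM in WT and 3070 to 3368 TPM in ARID1A-KO, most of it vimentin (VIM), which rose from a mean of 1556 to 2779 TPM. Of 6 epithelial markers only EPCAM averaged at least 1 TPM, with summed levels of 7.54 to 10.4 TPM in WT and 10.2 to 10.3 TPM in ARID1A-KO. Of the 4 tested, CDH1 and KRT14 were called lower and EPCAM higher. The EPCAM call was lost without WT replicate 4 or 5 or ARID1A-KO replicate 3 or 4 (adjusted p 0.0599 to 0.0850). None of 6 blood and 3 endothelial markers averaged at least 1 TPM, and the blood marker HBB was listed at 0 in every sample. Only 1 blood marker was tested, and it was called lower (log2 fold change -2.10). The marker levels moved with the genotype, and their part in the results below was not tested. In bulk RNA, fewer cells of a type and less RNA per cell cannot be told apart.

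Promoter sequences of CBX7 and EZH1 are shown because these genes rose while the medians of their neighbours lay near 0, and those of CDX2 and HOXA13 because each rose most in its list of target genes among called genes with a mean log2 CPM over 1. Polycomb complexes in mammalian cells are known to be recruited to CpG islands, so the dinucleotide CG is printed in capitals. Each line gives the 250 bases before the annotated start of transcription, 5′ to 3′ on the strand of the gene, from RefSeq on GRCh38.p14. All 4 genes lie on the minus strand. The windows are chr22:39152681-39152930 for CBX7, chr17:42745041-42745290 for EZH1, chr13:27969316-27969565 for CDX2 and chr7:27200092-27200341 for HOXA13.
CBX7: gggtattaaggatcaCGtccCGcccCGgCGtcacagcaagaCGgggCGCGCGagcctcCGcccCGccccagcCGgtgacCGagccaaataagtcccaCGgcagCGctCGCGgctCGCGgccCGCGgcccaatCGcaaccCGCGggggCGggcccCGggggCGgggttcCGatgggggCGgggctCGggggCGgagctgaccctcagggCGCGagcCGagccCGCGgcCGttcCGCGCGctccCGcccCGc
EZH1: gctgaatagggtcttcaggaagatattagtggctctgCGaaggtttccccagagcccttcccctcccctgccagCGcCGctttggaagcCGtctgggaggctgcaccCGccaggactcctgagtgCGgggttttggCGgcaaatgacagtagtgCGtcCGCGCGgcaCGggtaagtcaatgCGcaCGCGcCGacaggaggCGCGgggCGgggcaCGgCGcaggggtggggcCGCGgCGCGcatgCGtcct
CDX2: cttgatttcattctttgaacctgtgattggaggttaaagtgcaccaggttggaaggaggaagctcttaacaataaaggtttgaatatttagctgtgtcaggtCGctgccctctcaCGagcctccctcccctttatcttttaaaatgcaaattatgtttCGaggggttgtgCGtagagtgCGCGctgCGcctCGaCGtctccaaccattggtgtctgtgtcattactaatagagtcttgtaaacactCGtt
HOXA13: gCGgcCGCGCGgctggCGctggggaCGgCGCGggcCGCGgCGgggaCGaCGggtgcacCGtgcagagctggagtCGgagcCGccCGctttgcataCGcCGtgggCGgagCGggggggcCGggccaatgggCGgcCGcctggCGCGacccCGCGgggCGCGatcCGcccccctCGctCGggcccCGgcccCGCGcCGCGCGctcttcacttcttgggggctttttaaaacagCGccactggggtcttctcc
These windows hold 41 CG for CBX7, 26 for EZH1, 10 for CDX2 and 40 for HOXA13. Promoter windows of 300 bases, with 50 bases after the start, were found for 30 of the 33 Polycomb genes. CG was at least 0.6 times as frequent as its base composition predicts in 26 of the 30 (86.7%), against 78.4% of 11264 promoters of tested genes and 49.0% of all 27305 promoters. PCGF2, BCOR, PHF1 and PCGF1 were the 4 below it. The words TTTCCCGC and TTTGGCGC, which E2F factors are known to bind, were searched on both strands and stood in 3 of the 30 promoters, those of EZH2, SUZ12 and MTF2, against 3.50% of the promoters of tested genes. None of these 3 genes was called.

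Among the core subunits of PRC2, the catalytic subunit EZH1 was higher in ARID1A-KO cells and its paralog EZH2 was not called. EZH1, on chromosome 17 (40852293 to 40897071, minus strand, GRCh37), stood at 18.8, 20.8 and 17.0 TPM in WT and at 24.2, 25.3 and 23.6 TPM in ARID1A-KO, without overlap. Its log2 fold change was 0.37 (SE 0.08 and adjusted p = 0.00752), or 29.5% more. EZH2, the more active of these enzymes and the one linked to dividing cells, stood at 28.6, 24.4 and 26.4 TPM in WT and at 23.4, 24.5 and 25.0 TPM in ARID1A-KO, with overlap. Its log2 fold change was -0.12 (95% confidence interval -0.27 to 0.04, adjusted p = 0.234).

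The partners of these enzymes were not called either. SUZ12, the scaffold of PRC2, had 49.6 to 57.6 TPM in WT and 51.3 to 54.97 TPM in ARID1A-KO, and the interval of its log2 fold change ran from -0.14 to 0.15. EED, which binds the methylated histone tail, had 21.0 to 24.7 TPM and 21.0 to 21.8 TPM, and an interval from -0.25 to 0.06. Reads of SUZ12 can be shared with the near-identical pseudogene SUZ12P, so its count is less certain.

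None of the 5 accessory subunits of PRC2 was called, by edgeR or by DESeq2. At an unadjusted p under 0.05, 1 was higher and 1 lower. MTF2, PHF1 and PHF19 are the Polycomb-like proteins of one PRC2 class, and JARID2 and AEBP2 define the other class. PHF19 came closest to the threshold among the higher ones, at mean levels of 41.7 and 47.3 TPM in WT and ARID1A-KO cells and a log2 fold change of 0.19 (adjusted p = 0.0629). PHF1 varied most within a genotype, with 27.1, 30.5 and 37.4 TPM in the ARID1A-KO samples against 33.5 to 38.2 TPM in WT, a log2 fold change of -0.18 (adjusted p = 0.171, or 0.0238 without ARID1A-KO replicate 5). AEBP2 had a log2 fold change of -0.17 (adjusted p = 0.0713), JARID2 of -0.11 (adjusted p = 0.291) and MTF2 of 0.03 (adjusted p = 0.769).

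The ubiquitin ligases at the heart of PRC1 were not called. RING1 stood at 82.3, 78.0 and 81.7 TPM in WT and at 70.6, 77.7 and 85.9 TPM in ARID1A-KO, and RNF2 at 23.02 to 24.5 TPM and 22.9 to 24.4 TPM. The confidence intervals of the log2 fold changes were -0.19 to 0.11 for RING1 and -0.17 to 0.14 for RNF2. RING1 supplied 77.1% ± 0.97 (SD, n = 3) of the summed TPM of both genes in WT and 76.7% ± 1.998 in ARID1A-KO.

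Of the 6 PCGF genes, which set the type of a PRC1 complex, 2 were called and both were higher. PCGF6, of the variant complex that also holds E2F6 and L3MBTL2, stood at 25.5, 27.4 and 25.0 TPM in WT and at 37.9, 36.7 and 37.8 TPM in ARID1A-KO. The ARID1A-KO samples all lay above the WT samples, and the log2 fold change was 0.54 (SE 0.07 and adjusted p = 0.000494), or 45.1% more. PCGF6 lies on chromosome 10, from 105062553 to 105110891, and the 89 tested genes that start within 5 Mb of it had a median log2 fold change of 0.40. Relative to that median its change was 0.14 (adjusted p = 0.182). PCGF2 (MEL18), of canonical PRC1, stood at 56.1, 54.7 and 61.2 TPM in WT and at 62.3, 67.2 and 67.2 TPM in ARID1A-KO, a log2 fold change of 0.20 (SE 0.07 and adjusted p = 0.0396). That call was lost with DESeq2 and in 5 of the 6 fits that left out a sample, all but the one without WT replicate 5, with an adjusted p of up to 0.143.

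BMI1, the other PCGF protein of canonical complexes, had the highest mean level of the 33 genes. It stood at 101, 79.4 and 77.7 TPM in WT and at 81.3, 80.7 and 95.7 TPM in ARID1A-KO, with a log2 fold change of 0.01 (interval -0.21 to 0.23). The annotation also lists a readthrough gene, COMMD3-BMI1, on the same strand, which held at most 1 count in a sample, so reads in exons that both share may be missing from the count of BMI1. PCGF1, PCGF3 and PCGF5, of variant complexes, were not called, with log2 fold changes of 0.08, -0.16 and -0.03. Among these PCGF3 lay lowest, with 16.9 to 18.4 TPM in WT and 15.3 to 16.3 TPM in ARID1A-KO, without overlap (adjusted p = 0.0583).

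The CBX genes encode the readers that bring canonical PRC1 to the methylated histone, and they moved in both directions. CBX7, on chromosome 22 (39516172 to 39548679), stood at 5.72, 8.31 and 5.71 TPM in WT and at 11.1, 11.3 and 10.5 TPM in ARID1A-KO. WT replicate 4 lay above the other WT samples but below every ARID1A-KO sample. The log2 fold change of 0.74 (SE 0.15 and adjusted p = 0.00366), or 1.67-fold, was the highest of the 33 genes, and the 158 neighbours of CBX7 had a median of 0.04.

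CBX2 fell. Its level was 61.0, 58.3 and 58.6 TPM in WT and 47.3, 52.1 and 51.6 TPM in ARID1A-KO, a log2 fold change of -0.23 (SE 0.06 and adjusted p = 0.01003), while its 191 neighbours had a median of 0.12. CBX8 lies next to CBX2 on chromosome 17, on the other strand. It stood at 13.6 to 15.5 TPM in WT and 12.6 to 16.7 TPM in ARID1A-KO and was not called (log2 fold change 0.02, interval -0.20 to 0.23). CBX6, the CBX gene with the highest level, had 65.7, 74.5 and 68.9 TPM in WT and 81.0, 92.5 and 73.7 TPM in ARID1A-KO. ARID1A-KO replicate 5 overlapped the WT samples, and the log2 fold change of 0.25 had an adjusted p of 0.0741, or 0.00934 without that replicate.

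All 3 PHC genes, which encode the polymerizing Polyhomeotic subunits of canonical PRC1, were called, 2 higher and 1 lower. PHC2 stood at 38.9, 46.2 and 47.0 TPM in WT and at 61.4, 65.3 and 62.6 TPM in ARID1A-KO, a log2 fold change of 0.52 (SE 0.08 and adjusted p = 0.00124). PHC1 stood at 35.9, 39.3 and 35.8 TPM and at 42.9, 46.1 and 46.4 TPM, a log2 fold change of 0.29 (SE 0.06 and adjusted p = 0.00559). Reads of PHC1 can be shared with its pseudogene PHC1P1. PHC3, the least abundant of them, fell from 7.88, 8.21 and 6.92 TPM to 5.24, 5.51 and 5.45 TPM, a log2 fold change of -0.50 (SE 0.08 and adjusted p = 0.000941). The 31 tested neighbours of PHC3 on chromosome 3 had a median of -0.55. Relative to it PHC3 changed by 0.05 (adjusted p = 0.636), whereas PHC1 and PHC2 were called on that scale too, with 0.33 (adjusted p = 0.00378) and 0.44 (adjusted p = 0.00396). The summed TPM of the 3 genes was 88.7 ± 5.56 (SD, n = 3) in WT and 114 ± 3.802 in ARID1A-KO.

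In variant PRC1, YAF2 was lower and the BCOR paralogs were higher. YAF2, which takes the place of a CBX protein in variant complexes, stood at 5.64, 5.17 and 5.64 TPM in WT and at 3.93, 4.40 and 4.72 TPM in ARID1A-KO, a log2 fold change of -0.33 (SE 0.08 and adjusted p = 0.0119). Without ARID1A-KO replicate 3 the adjusted p of YAF2 was 0.0567. Its paralog RYBP had 16.3 to 18.9 TPM and 15.2 to 16.3 TPM and was not called (log2 fold change -0.12, adjusted p = 0.190). KDM2B, whose zinc finger binds unmethylated CpG, had a log2 fold change of 0.09 (adjusted p = 0.468).

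BCOR and BCORL1, the alternative scaffolds that join PCGF1 in the complex PRC1.1, rose side by side. BCOR stood at 25.8, 24.3 and 23.8 TPM in WT and at 27.9, 31.1 and 29.8 TPM in ARID1A-KO, a log2 fold change of 0.27 (SE 0.06 and adjusted p = 0.00727). BCORL1 stood at 8.79, 8.69 and 9.13 TPM and at 10.8, 11.8 and 11.3 TPM, a log2 fold change of 0.36 (SE 0.07 and adjusted p = 0.00382). They lie on opposite arms of chromosome X, and their neighbours had medians of -0.12 and -0.04.

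In PR-DUB the deubiquitinase BAP1 was not called, with 44.6 to 47.8 TPM in WT and 46.7 to 51.0 TPM in ARID1A-KO and a log2 fold change of 0.08 (interval -0.06 to 0.22). ASXL1, the main partner of BAP1 by level, stood at 60.5, 54.3 and 58.1 TPM and at 61.0, 65.0 and 73.4 TPM, a log2 fold change of 0.21 (SE 0.07 and adjusted p = 0.0355). The call was lost in 5 of the 6 fits that left out a sample, all but the one without ARID1A-KO replicate 3, with an adjusted p of up to 0.110, and the 95 neighbours of ASXL1 had a median of 0.27. ASXL2 stayed between 25.9 and 27.6 TPM in all 6 samples (log2 fold change 0.05, interval -0.07 to 0.17). ASXL3 was close to silent. It held 76, 75 and 66 counts in WT and 46, 43 and 49 in ARID1A-KO, or 0.302, 0.275 and 0.294 TPM against 0.170, 0.204 and 0.150 TPM. The samples did not overlap, and the log2 fold change was -0.74 (SE 0.19 and adjusted p = 0.0146).

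**Figure D2:**
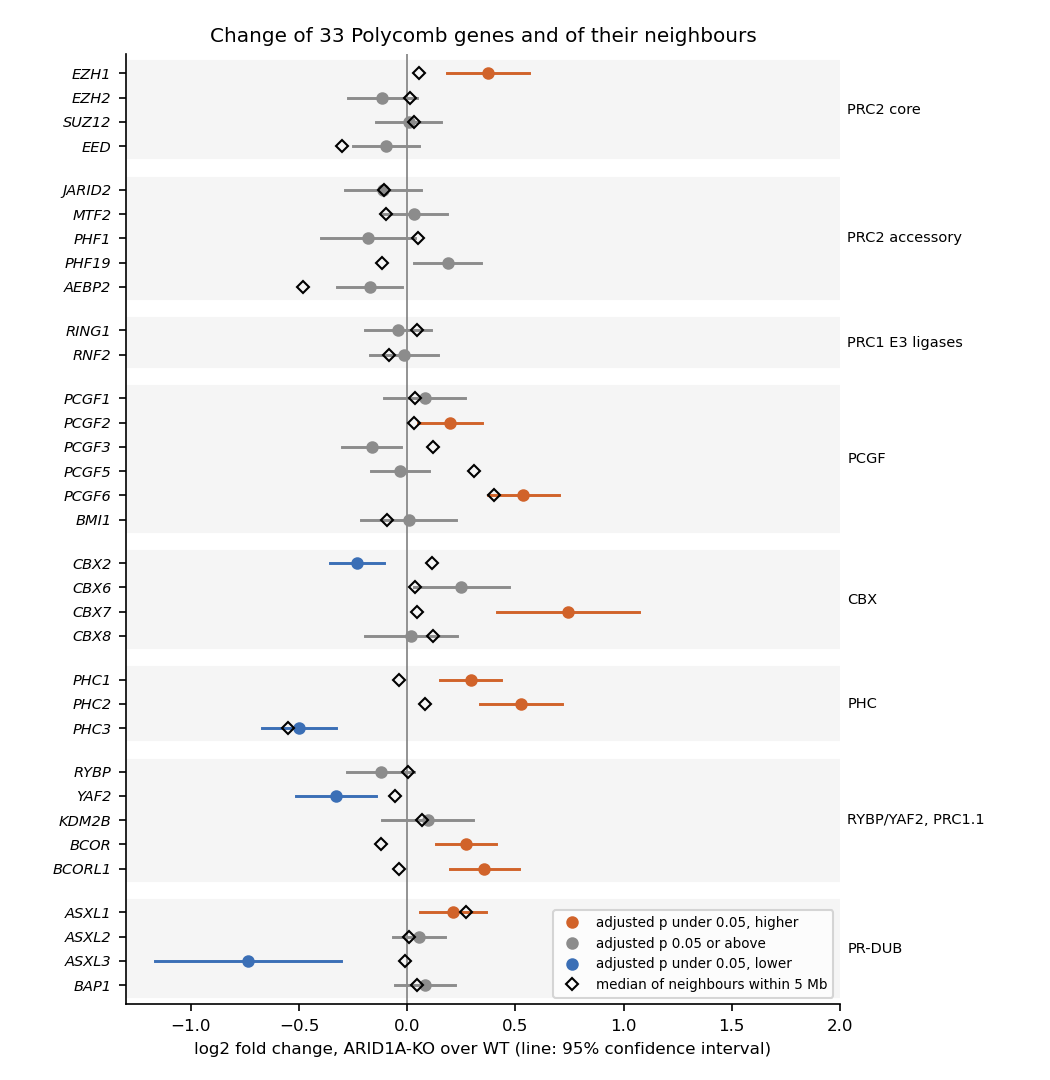
The log2 fold change of each Polycomb gene (filled circles, with the 95% confidence interval as a line) and the median log2 fold change of the tested genes within 5 Mb of it (open diamonds). The 9 genes called higher are orange and the 4 called lower blue, and the diamonds of PCGF6, PHC3 and ASXL1 lie near their circles while those of CBX7, PHC2 and EZH1 lie near 0.

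Since neighbours of several Polycomb genes had shifted together, each gene was also tested after its counts were offset by the median change of its neighbours. On this scale 32.1% of all tested genes and 14 of the 33 Polycomb genes were called, 9 of them the same. CBX7, PHC1, PHC2, BCOR, BCORL1 and EZH1 remained higher and CBX2, YAF2 and ASXL3 lower. PCGF6, PCGF2 and ASXL1 were no longer called higher, nor PHC3 lower. The genes newly called were PHF19 with 0.30, AEBP2 with 0.31 and EED with 0.20 on the higher side, and PCGF3 with -0.29 and PCGF5 with -0.34 on the lower side. The offset came from the same 6 samples and was treated as known, so these calls leave out its error. It rested on 40 neighbours for EED (adjusted p = 0.0475) and 41 for AEBP2. The neighbours of AEBP2 and EED had fallen, by medians of -0.48 and -0.30, and those of PCGF5 had risen by 0.31. DNA copy number was not measured in these data, and its part in these values was not tested.

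Levels of paralogs were then compared within a sample, as the log2 ratio of their TPM, for 10 pairs. With 3 samples against 3, the exact permutation test (two-sided) gives no p below 0.1, or 0.167 after Benjamini-Hochberg adjustment over the 10 pairs, so no ratio could pass the threshold. For 6 pairs the genotypes did not overlap, each with that smallest p. The share among other gene pairs was not computed, and 49.5% of all tested genes did not overlap when taken singly. PHC2 exceeded PHC3 by 5.74-fold in WT and 11.7-fold in ARID1A-KO, a difference of 1.03 on the log2 scale. CBX6 exceeded CBX7 by 10.7-fold in WT and 7.48-fold in ARID1A-KO, a difference of -0.52.

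EZH2 exceeded EZH1 by 1.401-fold in WT, while the ratio was 0.998 in ARID1A-KO, a difference of -0.49. EZH1 thus held 41.7% ± 3.84 (SD, n = 3) of the TPM of both genes in WT and 50.1% ± 1.29 in ARID1A-KO. The remaining 3 pairs without overlap were CBX8/CBX2, RYBP/YAF2 and ASXL1/ASXL2, with differences of 0.24, 0.21 and 0.16. The ratios of RNF2/RING1, BCOR/BCORL1, BMI1/PCGF2 and MTF2/PHF19 overlapped, with differences of 0.03, -0.08, -0.19 and -0.16. Single samples weighed on these values. Without WT replicate 3 the difference of BMI1/PCGF2 was -0.055 and that of BCOR/BCORL1 -0.043, and without WT replicate 5 they were -0.30 and -0.13. Without ARID1A-KO replicate 5 that of MTF2/PHF19 was -0.063 and that of ASXL1/ASXL2 0.099, and without ARID1A-KO replicate 3 that of MTF2/PHF19 was -0.24. Within the 4 CBX genes, the share of CBX2 was 39.6% ± 1.77 in WT and 31.8% ± 1.78 in ARID1A-KO, and that of CBX7 4.37% ± 0.87 and 6.94% ± 0.33. Within the 6 PCGF genes, the share of PCGF6 was 10.8% ± 0.88 and 14.4% ± 0.56.

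**Figure D3:**
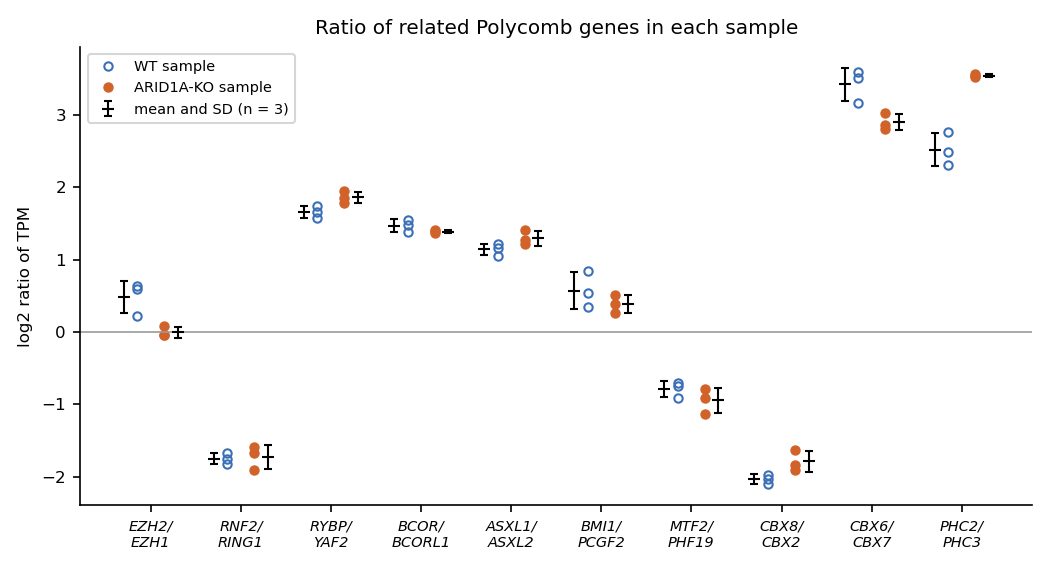
The log2 ratio of the TPM of 10 pairs of related Polycomb genes in each of the 3 WT (open) and 3 ARID1A-KO (filled) samples, with the mean and SD of each genotype. The ratio of PHC2 to PHC3 moved most, by 1.03, and the ratio of EZH2 to EZH1 reached 0, that is equal levels, in ARID1A-KO.

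Other genes that work with or against Polycomb were taken from lists of accessory subunits and antagonists. Of 45 such genes 44 were tested and 16 were called, 6 higher and 10 lower, a share of 36.4% against 36.2% of all tested genes. By list, 3 of 5 other PRC2 genes, 8 of 22 other PRC1 genes, 2 of 7 other PR-DUB genes and 3 of 10 tested antagonists were called. KMT2B was listed at 0 in every sample and was not tested. The paper lists its protein among those detected with ARID1A, so this 0 need not mean that the gene is silent. Its cause was not tested. Relative to their neighbours 15 were called, 1 higher and 14 lower, against 3006 higher and 3283 lower of all 19599 tested genes. Leaving out a sample gave 11 to 17 calls, beside 5285 to 7050 of the 19991 to 20183 genes tested in those fits. The calls on the higher side fell to 2 without WT replicate 3 or ARID1A-KO replicate 4. They fell to 3 without WT replicate 4 or ARID1A-KO replicate 3 and to 4 without WT replicate 5.

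RBBP7, a histone chaperone of PRC2, stood at 66.2, 59.8 and 64.4 TPM in WT and at 44.3, 44.1 and 46.6 TPM in ARID1A-KO, a log2 fold change of -0.49 (SE 0.06 and adjusted p = 0.000247). RBBP4, of the same list and more abundant, averaged 73.6 TPM in WT and 65.8 TPM in ARID1A-KO. It was not called (log2 fold change -0.15, adjusted p = 0.0664), but was called lower relative to its neighbours (-0.24, adjusted p = 0.0131). LCOR, which also encodes a PRC2 accessory protein, changed by -0.56 (adjusted p = 0.00169). TFDP1, the partner of E2F6 in PCGF6 complexes, showed the greatest fall among these lists, from 259, 237 and 271 TPM to 151, 152 and 162 TPM (log2 fold change -0.72, SE 0.07, adjusted p = 5.1e-05), and its neighbours had a median of -0.34. AUTS2, of PCGF3 and PCGF5 complexes, changed by -0.68 (adjusted p = 0.000541). In PR-DUB, KDM1B was higher by 0.52 (adjusted p = 0.01) and MBD5 changed by -0.44 (adjusted p = 0.00500).

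All 3 called antagonists were lower. These enzymes methylate histone H3 at lysines that mark active genes. KMT2A stood at 23.5, 19.9 and 20.2 TPM in WT and at 15.02, 14.8 and 16.6 TPM in ARID1A-KO, a log2 fold change of -0.45 (SE 0.07 and adjusted p = 0.00129). NSD2, listed as WHSC1 in the tables, changed by -0.40 (SE 0.06 and adjusted p = 0.00121), and NSD1 by -0.29 (adjusted p = 0.00426). No antagonist was called higher by edgeR or DESeq2, and 1 was higher at an unadjusted p under 0.05. EZHIP, an inhibitor of PRC2 listed as CXorf67 and singled out here after its value was seen, stood at 71.6, 73.1 and 83.4 TPM in WT and at 81.3, 90.8 and 94.9 TPM in ARID1A-KO. Its samples overlapped in TPM, with a log2 fold change of 0.23 (adjusted p = 0.0447), and it was called in 1 of the 6 fits that left out a sample.

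Developmental genes that Polycomb is known to repress in many tissues spanned a wide range of levels, with a median of 2.66 TPM over 94 genes. A mean of at least 1 TPM was reached by 28 of 55 target genes and 27 of 39 HOX genes. Of 55 such target genes, most of them for transcription factors, and 39 HOX genes, 67 passed the filter on low counts, 34 and 33 of them, and 4 were listed at 0 in all samples. Of the 67 tested genes 27 were called higher and none lower, 16 target genes and 11 HOX genes, against 17.8% of all tested genes called higher and 18.4% called lower. The lists were chosen with earlier results of these data known, so this contrast is descriptive and no independent test. The median log2 fold change of the 67 was 0.28. At an unadjusted p under 0.05, 34 were higher and none lower. DESeq2 also called 27 higher and none lower, against 3314 higher and 3570 lower of all 19599 tested genes. A gene that passed the filter through its level in 1 genotype only had to differ, so these counts do not describe the 94 genes as a whole. Without the filter 90 were tested, and 25 were called higher and 1 lower, against 4022 higher and 4201 lower of all 36390 genes. The lower one was HOXB9, which is named after its value was seen. Its mean was 67.4 TPM in WT and 56.9 TPM in ARID1A-KO, with an adjusted p of 0.0154 without the filter and 0.165 with it. Relative to their neighbours 25 were called higher and none lower, 24 of them the same genes. On this scale 3006 of all 19599 tested genes were called higher and 3283 lower. Leaving out a sample gave 18 to 27 calls, beside 5285 to 7050 of the 19991 to 20183 genes tested in those fits.

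CDX2, an intestinal regulator, stood at 1.38, 2.21 and 1.74 TPM in WT and at 4.38, 4.66 and 4.68 TPM in ARID1A-KO, a log2 fold change of 1.37 (SE 0.17 and adjusted p = 0.000349). FOXF1, a mesenchymal forkhead factor, rose from 5.18, 4.98 and 4.16 TPM to 7.94, 9.08 and 9.65 TPM, by 0.90 on the log2 scale (SE 0.12 and adjusted p = 0.000556). IRX3 rose by 0.78, PAX5, a B cell factor, by 0.77 at under 1 TPM, MSX1 by 0.68, FOXF2 by 0.62 and HAND2 by 0.52. The call of HAND2 was lost without WT replicate 3 or ARID1A-KO replicate 4 (adjusted p up to 0.0675). The neighbours of HAND2 had a median of -0.88 and those of FOXF1 a median of 0.38. In both genotypes all of these genes other than MSX1 and FOXF2 stayed under 12 TPM.

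HOX genes give cells their position along the body axis and lie in 4 clusters. HOXA13, at the far end of its cluster, stood at 2.47, 3.05 and 2.15 TPM in WT and at 4.76, 5.31 and 4.97 TPM in ARID1A-KO, a log2 fold change of 0.97 (SE 0.15 and adjusted p = 0.000809). HOXB2 rose from 11.8, 13.3 and 12.6 TPM to 18.9, 21.9 and 23.3 TPM, by 0.77 on the log2 scale (SE 0.09 and adjusted p = 0.000190). HOXB6 rose by 0.58, HOXA5 by 0.56, HOXC11 by 0.54, HOXB5 by 0.54, HOXC9 by 0.35 and HOXD9 by 0.34. The call of HOXA5 was lost without WT replicate 5, ARID1A-KO replicate 4 or ARID1A-KO replicate 5 (adjusted p up to 0.0680), that of HOXC9 without ARID1A-KO replicate 4 (0.0567), and that of HOXD9 in each fit that left out a sample other than WT replicate 4 (up to 0.168). The neighbours of these HOX genes, which include other HOX genes, had medians between -0.01 and 0.04.

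**Figure D4:**
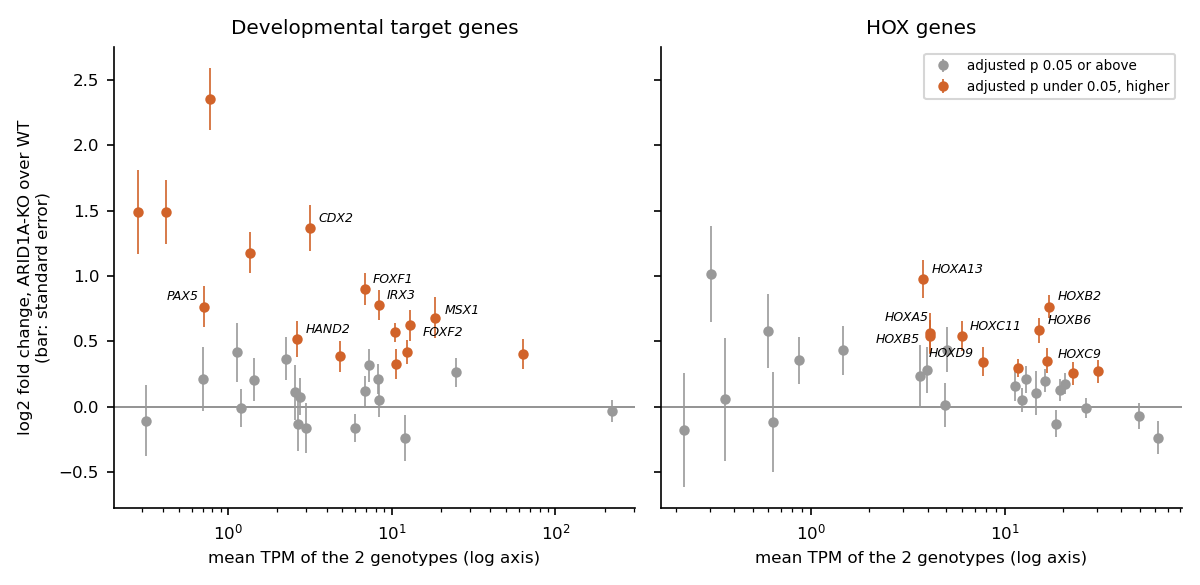
The log2 fold change (bars: standard error) of the tested developmental target genes (left, 34 genes) and HOX genes (right, 33 genes) against their mean TPM over both genotypes on a log axis. The 27 genes called higher are orange, no gene was called lower, and the largest changes were at levels of a few TPM or less.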

How the data were processed

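RNA-seq of untreated AID-DIvA cells (3 WT, 3 ARID1A-KO) was analysed, with genotypes taken from the sample labels. Libraries were made with a stranded total RNA kit, while the labels give the molecule as polyA RNA, and were sequenced as read pairs of 100 bp. Per the methods of the authors, STAR aligned the reads to GRCh37 within the Roddy workflow, and featureCounts counted them per gene. The deposited counts are whole reads per gene without normalization, and the reverse-stranded counts were used because forward counts came to 5.83 to 6.15% of them. The deposited TPM values used here are counts scaled by gene length and to the same total over all genes of each sample. Another deposited TPM column, with sums from 1.33e+06 to 1.38e+06 that differed between samples, was not used. At 54512105 to 84088708 counts a sample, counting error mattered for low genes such as ASXL3. The replicates varied by a coefficient of 0.111 (common biological variation in edgeR), and each pair of samples differed by more than sampling noise (chi-square per gene of 7.57 or more).

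Genes that passed filterByExpr were scaled by TMM and tested with edgeR 4.0.16 (R 4.3.3) quasi-likelihood, with no covariate, and p-values were adjusted over 19599 genes at a threshold of 0.05. Ratios were tested by exact permutation (SciPy 1.17.1). The neighbour offset subtracted the median log2 fold change of the other tested genes starting within 5 Mb. It was entered as a fixed value, so p-values on that scale leave out the error of the median. The 33 genes and all lists were chosen with earlier results of these data known. Outside the 33 genes and ARID1A, the genes named are the called genes with the largest changes, up to 8 each from the associated genes, the target genes and the HOX genes, the latter 2 with a mean log2 CPM over 1. Markers, pseudogenes, RBBP4, EZHIP and HOXB9 are named outside this rule, and NSD1 as the third called antagonist. The results of some genes are not reported here. PECAM1 and EPOP were not matched by name and are not used here. The fits were tested on simulated data, and the alternatives are given in the closing section, DESeq2 1.42.0 among them.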

Additional observations from a re-analysis of the deposited data

How the results depend on the processing

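The number of Polycomb genes called stayed between 11 and 15 under every alternative at an adjusted p under 0.05. Over all genes the calls ran from 5285 without ARID1A-KO replicate 4 to 8223 without a filter. The same 13 genes were called with unstranded counts, RLE normalization and at least 10 counts in every sample. DESeq2 called 12 of them, and 6884 of all 19599 tested genes. Leaving out each sample in turn gave 11 to 13, beside 5285 to 7050 of the 19991 to 20183 genes tested in those fits. At an adjusted p under 0.01, 8 of the 33 genes (7 higher, 1 lower), 9 of the 44 other Polycomb-associated genes (1 higher, 8 lower) and 4414 of all genes were called. The neighbour offset reversed the sign of SUZ12 (-0.025), EED (0.20), AEBP2 (0.31), RNF2 (0.071), CBX8 (-0.10), PHC3 (0.052) and ASXL1 (-0.063), and testing without a filter that of SUZ12 (-0.00020). Leaving out 1 sample moved genes near 0 across it, with ranges of -0.032 to 0.057 for SUZ12, -0.015 to 0.071 for MTF2, -0.090 to 0.0034 for RING1, -0.040 to 0.030 for RNF2, -0.058 to 0.12 for BMI1 and -0.059 to 0.092 for CBX8, and the ratio RNF2/RING1 ran from -0.037 to 0.12. The differences of BMI1/PCGF2 ran from -0.30 to -0.055, of BCOR/BCORL1 from -0.13 to -0.043, of MTF2/PHF19 from -0.24 to -0.063 and of ASXL1/ASXL2 from 0.099 to 0.20. The cause was not tested for genes near 0. Of 429 values of the 33 genes under the alternatives, 386 kept their direction and their side of the threshold, 15 lost the call, 8 gained it and 20 reversed.

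Replicate numbers were not used to pair the samples in the main fit. Deviations from the genotype means correlated at -0.24, 0.50 and 0.33 for numbers 3, 4 and 5 over 13217 genes. For unlike numbers the correlations ran from -0.61 to 0.47. Such deviations sum to 0 over the 3 samples of a genotype, so these values cannot show whether the numbers pair the samples. With the replicate number as a block, 15 Polycomb genes and 7477 of all genes were called, CBX6 and PHF19 among the former, and the difference of the ratio of PHC2 to PHC3 remained 1.03 with a smallest possible p of 0.25. Counts near those of ASXL3 limit the precision for the lowest genes, and 3 samples a genotype limit the ratios.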

Other observations

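Outside the rule for named genes, 3 target genes at low levels had larger changes than most of those described. GATA6 stood at 0.253, 0.175 and 0.341 TPM in WT and at 1.33, 1.24 and 1.31 TPM in ARID1A-KO, a log2 fold change of 2.35 (edgeR adjusted p = 9.31e-05). GATA2 changed by 1.18 (adjusted p = 0.000421), from 0.744 to 0.905 TPM in WT to 1.71 to 2.07 TPM in ARID1A-KO. TBX5 changed by 1.49 (adjusted p = 0.00136) at under 1 TPM in every sample, from 16 to 24 counts in WT to 44 to 67 counts in ARID1A-KO. SOX9, a regulator of cartilage cells and the most abundant of the called target genes, stood at 51.0, 54.5 and 59.0 TPM in WT and at 70.0, 83.98 and 62.2 TPM in ARID1A-KO, a log2 fold change of 0.40 (adjusted p = 0.0233), and was called in 3 of the 6 fits that left out a sample. These genes were chosen after their values were seen.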
